A study of Rattus norvegicus with 4 samples.

Results

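Left ventricular RNA from terminal heart failure was compared with left ventricular RNA from losartan-treated dTGR, 1 microarray on each side. dTGR is the submitters' name for rats that overexpress the human renin and angiotensinogen genes. The 2 arrays are 2 of the 4 in the series, the others being a dTGR array with no treatment named and an SD (Sprague Dawley) control array, and all 4 were hybridised with total RNA to the same Affymetrix rat design. The pair was taken because both arrays come from 1 chip lot and were stained with 1 fluidics protocol, and it covers all 8740 features (probe sets, groups of short probes for 1 transcript) that are not controls, of 8799 on the design.

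The title of the terminal array names neither strain nor treatment. Every sample, the SD control included, carries the same description, which speaks of the renin and angiotensinogen overexpressing rats and of their hypertension, cardiac hypertrophy and proteinuria. Whether the terminal hearts were untreated dTGR hearts is therefore read from that shared description only. The losartan array is titled as dTGR given losartan. None of dose, duration, age, sex, number of animals behind an array, pooling and transgene promoter is given in the sources used here. With 1 array a group there is no spread between animals, so each difference is a size without an error or a test, and it describes these arrays.

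Renin cuts angiotensinogen to angiotensin I, and angiotensin-converting enzyme makes angiotensin II from it. Through the AT1 receptor angiotensin II constricts vessels, drives aldosterone release and acts on cardiac muscle, fibroblasts and inflammatory cells. Losartan blocks the AT1 receptor. A failing ventricle typically raises natriuretic peptides and stress-response genes, remodels its matrix and lowers genes of fatty acid oxidation.

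Intensities were brought to a common trimmed mean, and values at or under 26.0, the 40th percentile of all values, are called under the floor. Where 1 array of the pair was under the floor, a fold is computed against the floor and given as "at least". A gene was measured when at least 1 array of the pair was above the floor. Where a gene had several probe sets, the one with the highest mean log2 value over the 4 arrays stood for it, and a gene's values, also where they are called under the floor, are those of that probe set. Other probe sets that are given were above the floor on at least 1 array of the pair. Not all of them are given, so a gene named without them may still have some. Differences are on the log2 scale as terminal minus losartan.

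The pair differed in measures of RNA and hybridisation. The ratio of the 3' to the 5' probe set of Gapdh was 1.28 on the terminal array and 2.17 on the losartan array, against 1.73 for dTGR and 1.35 for SD control, and that of beta-actin was 1.63 against 2.26. The terminal array was hybridised on its own day, the other 3 on another day, so run day and group cannot be told apart. Probe sets annotated to several ribosomal RNA genes at once were far brighter on the terminal array than on the other 3: 1 of them read 4723 on the terminal array, 66.2 on the losartan array, 72.2 on the dTGR array and 22.1 on the SD control array. The other 3 of these probe sets read 1197, 1329 and 133 on the terminal array, and at most 65.1 on the losartan array. The dTGR array, whose values are set beside the pair below, was stained with another protocol than the other 3 (first stain 0 s against 600 s). It and the SD control array came from another chip lot than the pair. The 100 brightest features held 46.3% of the signal on the dTGR array, against 31.8% on the terminal, 36.9% on the losartan and 32.9% on the SD control array. The part of these differences in the results was not tested. All 9 cardiomyocyte markers on the design, Myl2 of ventricular muscle among them, were above the floor on both arrays.

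Of 3394 measured genes, 251 were at least 2-fold higher on the terminal array (7.4%) and 247 at least 2-fold lower (7.28%). The counts of each gene list below are to be read beside these shares of all genes. The 2 directions were close in number but not in size: 40 genes were at least 4-fold higher and 17 at least 4-fold lower, and at least 8-fold differences came to 15 against 1. Both arrays were above the floor for 2793 genes, of which 183 were higher and 192 lower. The median difference over all measured genes was -0.12, with the middle 50% of genes between -0.54 and 0.33. Among the 2793 genes above the floor on both arrays, brightly hybridising ones lay a little lower than dim ones. With these in 4 equal classes by mean level over the 4 arrays, the median was -0.20 in the brightest class and -0.11 in the dimmest.

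Several probe sets for 1 gene give the only repeated measure. Of 498 genes called in either direction, 158 had another probe set above the floor, and in 125 of these (79.1%) the other probe sets lay on the same side. Estimated from 1239 pairs of probe sets of 1 gene, the SD of a single probe set's difference was 0.56 (log2). The scatter between the members of a pair was wider than that. Such an SD covers probes but neither arrays nor animals. For Kctd13, chosen here after its values were seen, the probe sets disagreed: it read 2644 on the terminal array and 106 on the losartan array, while its other probe sets gave differences of -0.73 and -0.71.

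**Figure D1:**
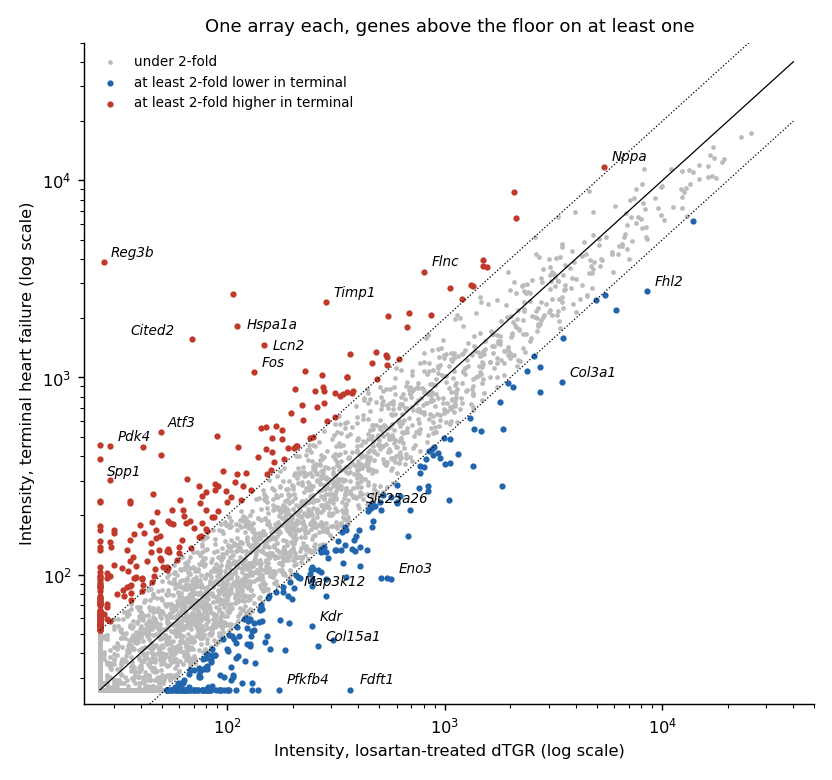
Intensity on the terminal array (vertical, log scale) against the losartan array (horizontal, log scale) for the 3394 measured genes, with values under the floor drawn at the floor of 26.0, a solid line at equality and dotted lines at 2-fold. Red points are the 251 genes at least 2-fold higher and blue points the 247 at least 2-fold lower. Reg3b stands farthest above the line, and Fdft1 and Pfkfb4 lie at or near the floor of the terminal array.

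Reg3b, a secreted C-type lectin that interleukin 6 family cytokines induce in stressed cardiomyocytes, gave the largest difference of any named gene. It read 3849 on the terminal array, 27.1 on the losartan array, 503 on the dTGR array and 41.2 on the SD control array, a 142-fold difference in the pair. The losartan value was thus near the floor and below the SD control, while the dTGR value lay between them and the terminal one. A probe set annotated to several metallothionein genes, metal-binding proteins of the stress response, read 10230.5 on the terminal array, 45.7 on the losartan array, 1775 on the dTGR array and 12.002 on the SD control array. The terminal array was again highest and dTGR next, with a 224-fold difference in the pair, but the probe set cannot be given to a single gene.

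The sequence before the Reg3b start is shown because STAT3, the transcription factor of interleukin 6 signalling, binds sites of the form TTCNNNGAA. The window is the 250 bases before the start in RefSeq's GRCr8 annotation, chr4:112419526-112419775, plus strand, 5' to 3', with the match in capitals.
Reg3b: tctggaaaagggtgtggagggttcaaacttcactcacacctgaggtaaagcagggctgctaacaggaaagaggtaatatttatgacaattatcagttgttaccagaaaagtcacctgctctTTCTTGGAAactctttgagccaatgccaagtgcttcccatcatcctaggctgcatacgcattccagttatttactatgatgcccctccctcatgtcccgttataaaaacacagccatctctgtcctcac
The match starts 129 bases before the gene's start. It reads the same on both strands, and 7.52% of 27457 RefSeq promoter windows of this length hold one. Among genes with a window, 5 of 208 higher ones (2.40%), 13 of 193 lower ones (6.74%) and 161 of 2780 measured ones (5.79%) hold it. It is a match of letters and no evidence of binding.

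Some other genes of the interleukin 6 pathway were higher as well. Of 20 measured genes of interleukin 6 family and JAK-STAT signalling, 6 were at least 2-fold higher and 1 lower, with a median of 0.24. Under a lower floor, set at the 25th percentile, 6 were higher and 6 lower and the median was -0.05. Il6st, the receptor subunit gp130 shared by this cytokine family, read 98.4 on the terminal array and under the floor on the losartan array, with 111 for dTGR and 36.5 for SD control. Jak2, a kinase bound to such receptors, read 169 against 46.9 (3.59-fold), and its other probe sets gave differences from 0.54 to 2.28. Socs3, the feedback inhibitor that STAT3 induces, read 149 on the terminal array and was under the floor on the losartan and dTGR arrays. Reg3g, a close relative of Reg3b, was 4.68-fold higher (306 against 65.4), and since such relatives are alike in sequence their probe sets may share signal. The receptor subunit, the kinase, the inhibitor and both Reg3 genes named here were thus higher, while Stat2, which serves interferon rather than interleukin 6 signalling, was 3.26-fold lower (45.5 against 148). Of the 16 measured genes of this list with a promoter window, Reg3b, Cish and Reg1a hold a TTCNNNGAA match, and only Reg3b of these was among the higher ones.

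Acute phase proteins, secreted in inflammation, lay on the same side. Of 20 measured genes of acute phase and complement proteins, 5 were higher and none lower, with a median of 0.48. Lcn2, which starves bacteria of iron by binding their siderophores, read 1467 on the terminal array and 147, 154 and 99.1 on the losartan, dTGR and SD control arrays, so the terminal array stood alone with a 9.96-fold difference in the pair. Orm1, a plasma acute phase glycoprotein, was 5.02-fold higher (146 against 29.04). Serpina3n, a protease inhibitor, was 2.74-fold higher (133 against 48.5). C1qb and C1qc, subunits of the first complement component made largely by macrophages, were 2.58-fold and 2.59-fold higher.

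The C/EBP and glucocorticoid list had the highest median of all the lists with at least 3 measured genes, 1.43, with 8 of 14 measured genes higher and none lower. Like the other lists, it was written with earlier results of these data known, so its rank is no independent finding. Cebpd, a transcription factor of the acute phase response, read 444 on the terminal array, 41.001 on the losartan array, 151 on the dTGR array and 64.8 on the SD control array. Its other probe sets disagreed with each other, at -0.30 and 3.12. Cebpb, its relative, read 849 against 278 (3.06-fold), with 221 for dTGR and 79.5 for SD control, and its other probe set gave 2.19. Nr3c1, the glucocorticoid receptor, read 161 on the terminal array and 153 on the SD control array, and 37.1 on the losartan array, so here the losartan array was the low one. Hsd11b1, the enzyme that regenerates active glucocorticoid inside cells, was 2.68-fold higher (1801 against 671), and dTGR and SD control were close to the losartan value at 723 and 569.9.

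Glucocorticoid-responsive genes were mixed. Glul, glutamine synthetase, was 2.71-fold higher (2853 against 1052). Errfi1, a feedback inhibitor of the EGF receptor, was 3.21-fold higher (181 against 56.4). Cdkn1a, the cell cycle inhibitor p21, was 4.51-fold higher (179 against 39.8). Nfkbia, the inhibitor of NF-kappaB, was 2.73-fold higher (607 against 223). Other responsive genes stayed under 2-fold: Dusp1, a phosphatase of MAP kinases, differed by -0.30 and Klf9, a transcription factor, by -0.18. The other probe sets of Dusp1 gave -1.03 and 0.46, and that of Klf9 was higher on the terminal array.

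Immediate early genes, which respond within minutes to stretch, hormones and tissue handling, formed the next group. Of 32 measured, 11 were higher and 3 lower, with a median of 0.84. Fos, a subunit of the AP-1 transcription factor, read 1061 on the terminal array, 133 on the losartan array, 227 on the dTGR array and 199.9 on the SD control array, and its other probe sets gave differences of 3.57 and 4.93. Junb, an AP-1 partner, read 232 against 35.7 (6.49-fold), with 146 for dTGR. Atf3, a stress-induced transcription factor, read 528 against 49.4 (10.7-fold), with 168 for dTGR and 49.2 for SD control. The terminal array was thus the highest of the 4 in each of these, and dTGR came next. Myc, a growth-promoting transcription factor, was 4.37-fold higher (207 against 47.4). Dusp6, a phosphatase of ERK, was 3.89-fold higher (162 against 41.6). Id2, an inhibitor of basic helix-loop-helix factors, went the other way, 2.99-fold lower (58.5 against 175). How long after death or excision each ventricle was taken is not given in the sources used here.

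Cited2, a CBP/p300-binding co-regulator that restrains HIF-1, came next to Reg3b among genes measured on both sides whose probe sets did not disagree. It read 1569 on the terminal array, 68.9 on the losartan array, 389 on the dTGR array and 312 on the SD control array, a 22.8-fold difference, and its other probe sets gave 2.79 and 3.09. Here the losartan array was the lowest of the 4. Crem, a cAMP-responsive transcription factor, was 5.60-fold higher (503 against 89.8), and its other probe sets above the floor gave 2.18 and 2.26.

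**Figure D2:**
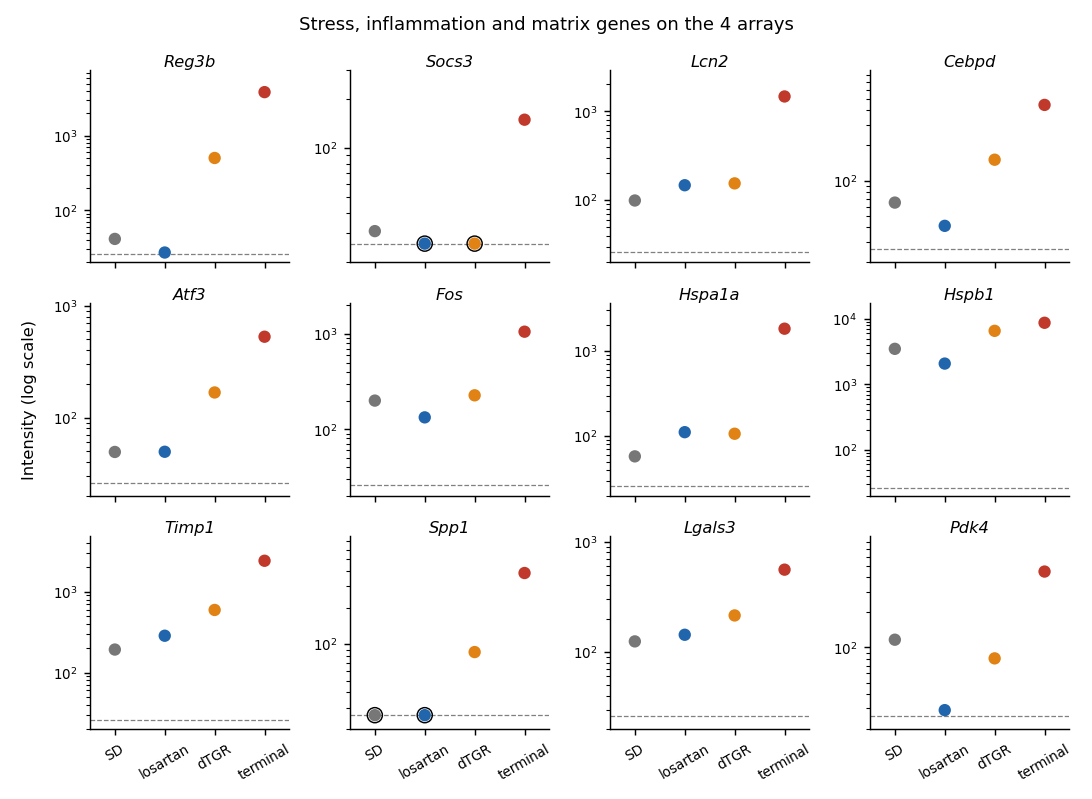
Intensity (log scale, a separate range in each panel) of 12 genes on the SD control, losartan, dTGR and terminal arrays, 1 point per array, with the floor of 26.0 dashed and values under it drawn on the line with a black ring. The terminal array is the highest point in all 12 panels, and dTGR is second in most of them but not for Hspa1a, Socs3 or Pdk4.

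The heat shock response, which refolds damaged proteins, was uneven. Of 23 measured heat shock proteins and co-chaperones, 4 were at least 2-fold higher and none lower, with a median of only 0.05. Hspa1a, the stress-inducible Hsp70, read 1829.7 on the terminal array against 111, 107 and 57.9 on the losartan, dTGR and SD control arrays, so the terminal array alone was high (16.4-fold in the pair). Dnajb1, the Hsp40 co-chaperone of Hsp70, read 543 against 178 (3.05-fold), with 206 for dTGR and 213 for SD control. Dnajb5, a related co-chaperone, was 2.13-fold higher (323 against 152). Hspb1, the small heat shock protein Hsp27, read 8746 against 2082 (4.20-fold), but also 6586 on the dTGR array, and differences from -0.59 to 3.01 in its remaining probe sets. The mitochondrial chaperones differed by under 2-fold and downward: Hspd1 by -0.61 and Hspa9 by -0.47, though another probe set of Hspa9 gave 0.23.

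Windows of 250 bases before the start of 2 of the higher members follow, from RefSeq GRCr8, because heat shock factor 1 binds arrays of the unit GAA and its complement. Capitals mark each match to GAANNTTC, a pair of facing units that reads the same on both strands. Dnajb1 lies at chr19:41431142-41431391 and Hspb1 at chr12:26432302-26432551, both on the minus strand and printed 5' to 3' along the gene.
Dnajb1: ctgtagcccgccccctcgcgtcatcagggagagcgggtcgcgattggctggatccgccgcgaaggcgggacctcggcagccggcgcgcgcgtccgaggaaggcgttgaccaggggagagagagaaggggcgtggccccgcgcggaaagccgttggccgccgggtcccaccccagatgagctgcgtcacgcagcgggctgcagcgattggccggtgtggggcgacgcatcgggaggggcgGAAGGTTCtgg
Hspb1: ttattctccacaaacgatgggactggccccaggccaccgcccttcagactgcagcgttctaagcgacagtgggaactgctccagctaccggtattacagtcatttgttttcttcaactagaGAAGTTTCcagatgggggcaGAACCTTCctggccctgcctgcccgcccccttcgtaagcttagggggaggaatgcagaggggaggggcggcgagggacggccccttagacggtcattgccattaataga
The match starts 11 bases before the Dnajb1 start, and the 2 matches before Hspb1 start 129 and 109 bases before it. Of 18 measured genes of the list with a window, 9 hold a match, against 4.68% of 2780 measured genes with a window and 7.02% of all 27457 windows. The 9 include Hspd1 and Hspa9, so holding a match and being higher on the terminal array did not go together in this list. All 4 higher members have a window. Dnajb1 and Hspb1, printed here, hold a match, and Hspa1a and Dnajb5 do not. Among the genes higher on the terminal array, 11 of 208 with a window hold the letters (5.29%), and among the lower ones 6 of 193 (3.11%).

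Inflammatory signalling genes were more often higher than lower. Of 26 measured chemokines, cytokines and adhesion molecules, 7 were higher and 1 lower, with a median of 0.14 that became -0.03 with each gene's probe sets reduced to their median. Ccl2, the chemokine that draws monocytes, read 322 on the terminal array, 111 on the losartan array, 166 on the dTGR array and 82.9 on the SD control array, and its other probe set gave a difference of 2.42. Tnfrsf1a, a receptor of tumour necrosis factor, was 2.74-fold higher (488 against 178). Csf1, the growth factor of macrophages, was 2.33-fold higher (60.6 against 26.1). Ccl5, a chemokine for T cells, was the member lower, at least 2.94-fold, and under the floor on the terminal array (76.5 after losartan).

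Macrophage markers moved with these genes. Of 11 on the array 8 were measured, 4 were at least 2-fold higher and none lower, with a median of 1.17, and their summed intensity was 5368 on the terminal array, 3119 on the losartan array, 3866 on the dTGR array and 3405 on the SD control array. Lgals3, galectin 3, read 556 against 143 (3.89-fold), with 214 for dTGR and 125 for SD control. Lyz2, lysozyme, read 2122 against 685 (3.10-fold). The lineage markers Csf1r, Itgam and Aif1 were under the floor on both arrays, and Cd74, the invariant chain of MHC class II, differed by -0.94. Of the 5 neutrophil markers on the array, S100a8 and S100a9, a calcium-binding pair, were above the floor on the terminal array only (90.5 and 77.9), and Mmp8, Cxcr2 and Defa5 were under it on both. The summed cardiomyocyte markers read 93323 on the terminal array, 131743 on the losartan array, 195167 on the dTGR array and 98707 on the SD control array, with a median difference of -0.53 that became 0.00 after quantile normalization. In a bulk ventricle, fewer cells of a type and less RNA per cell cannot be told apart, and the part of the cell mixture in the other results was not tested.

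Other marker lists were smaller or mixed. Of 5 atrial tissue markers on the array 4 were measured, with 2 higher, none lower and a median of 0.71. The 2 higher ones, Nppa and Myl7, are also counted in the natriuretic and fetal list below. The part of atrial tissue in these samples was not tested. The 10 measured fibroblast markers had 1 higher and 2 lower, with a median of -0.53 (-0.68 over those above the floor on both arrays). Their summed intensities were 15960 on the terminal array and 16886 on the losartan array. Endothelial markers were split: Kdr, a receptor of vascular endothelial growth factor, was 4.51-fold lower (54.6 against 246), whereas Flt1, the second receptor of that factor, was 3.85-fold higher (133 against 34.5). The 6 smooth muscle markers had a median of 0.64 with none past 2-fold. T cell markers had 5 of 10 measured, 1 of them higher. The mast cell, skeletal muscle, hepatocyte and B cell lists had none at 2-fold, but only 4, 6, 5 and 1 measured genes. In the skeletal muscle list 2 were higher after scaling to the same median, quantile normalization or cyclic loess.

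Interferon-induced genes were the clearest group on the lower side. Of 14 measured interferon genes and regulators, 4 were at least 2-fold lower and 1 higher, with a median of -0.77, the lowest of any list. Mx1, an antiviral GTPase, read 41.7 on the terminal array and 157, 176 and 148 on the losartan, dTGR and SD control arrays, so the terminal array stood alone. Its relative Mx2 read 32.7 against 70.5, 78.3 and 143 in the same order of arrays. Stat2 showed that pattern too, with 118 for dTGR and 112 for SD control beside its pair of 45.5 and 148. Irf7, the factor that amplifies type I interferon, read 132 against 385 (2.92-fold lower), with 221 for dTGR and 351 for SD control, and its other probe set gave -1.90. Outside the list, Irgm2, an interferon-inducible GTPase, was 4.43-fold lower (41.6 against 185). The exception was Ifngr1, a receptor chain for interferon gamma, 2.49-fold higher (132 against 53.002).

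The window before Irf7, chr1:205800024-205800273 of RefSeq GRCr8 on the minus strand, is printed 5' to 3' along the gene. It is shown because interferon-stimulated response elements, found before many interferon-induced genes, share the core GAAANNGAA, searched on both strands and marked in capitals (here on the opposite strand).
Irf7: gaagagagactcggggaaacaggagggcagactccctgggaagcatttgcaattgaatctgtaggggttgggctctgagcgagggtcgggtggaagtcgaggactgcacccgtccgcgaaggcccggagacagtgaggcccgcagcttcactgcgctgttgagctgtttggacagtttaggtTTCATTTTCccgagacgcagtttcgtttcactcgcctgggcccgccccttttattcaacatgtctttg
The match starts 68 bases before the gene's start. Of the 13 measured genes of the list with a window, 6 hold a match (Irf7, Oas1a, Eif2ak2, Ifitm3, Cxcl10 and Rsad2), against 5.97% of 2780 measured genes and 7.99% of all windows. Over all measured genes, 11 of 208 higher ones (5.29%) and 13 of 193 lower ones (6.74%) do. Of the 6 genes of the list, Irf7 alone was at least 2-fold lower. Ifitm3, a membrane protein that blocks viral entry, differed by 0.51 and Rsad2, viperin, by -0.87.

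Antigen presentation shared part of that direction. Of 23 measured genes 4 were lower and 1 higher, with a median of -0.20 that became 0.04 when each gene's probe sets were reduced to their median. Psmb9, the interferon-inducible catalytic subunit of the immunoproteasome, read 52.1 on the terminal array and 132, 139 and 118 on the losartan, dTGR and SD control arrays. Psme2, a proteasome activator subunit, was 2.23-fold lower (109 against 244), with 129 for dTGR. Cd1d1, which presents lipids to T cells, was 2.81-fold lower (87.4 against 245). RT1-S3, an MHC class I gene, was 2.51-fold lower (133 against 335), but its other probe sets gave -0.34 and 0.14, and MHC class I genes are near-identical, so the value is uncertain. Ctss, a lysosomal protease that trims the invariant chain in antigen-presenting cells, was the one higher, 2.22-fold (832 against 375).

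**Figure D3:**
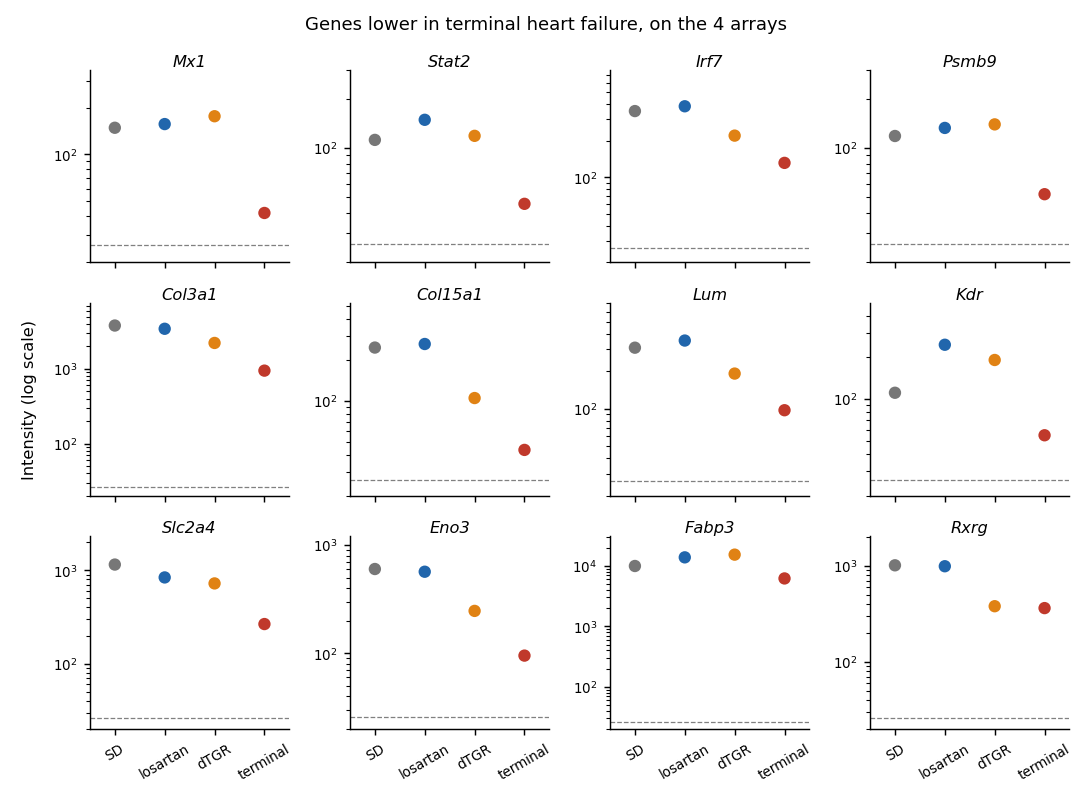
Intensity (log scale, a separate range in each panel) of 12 genes at least 2-fold lower in the pair, on the SD control, losartan, dTGR and terminal arrays, 1 point per array, with the floor of 26.0 dashed. The terminal array is the lowest point in all 12 panels, and for Rxrg the dTGR array lies next to it.

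Collagen genes went in both directions. Of 17 measured collagens and collagen-processing genes 4 were higher and 2 lower, with a median of 0.21 (-0.11 over those above the floor on both arrays). The fibrillar collagen Col3a1 read 948 on the terminal array, 3448 on the losartan array, 2226 on the dTGR array and 3811 on the SD control array, 3.64-fold lower in the pair, and its other probe set gave -0.92. Col15a1, a basement membrane collagen, read 43.4 against 261 (6.01-fold lower), with 104 for dTGR and 246 for SD control. Col1a1 and Col1a2, the chains of type I collagen, stayed under 2-fold at -0.68 and -0.72. Lox, P4ha1 and Plod2, enzymes that process collagen, went the other way. Lox, which cross-links collagen, read 287 against 87.5 (3.28-fold higher), with 104 and 111 on the dTGR and SD control arrays. P4ha1, a prolyl hydroxylase subunit, was 3.07-fold higher (492 against 160.005), and Plod2, a lysyl hydroxylase, 3.06-fold higher (269 against 88.003). Col8a1, a short-chain collagen, read 97.9 and 85.97 on the terminal and dTGR arrays and was under the floor on the losartan array.

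Matricellular proteins, which signal between matrix and cells rather than bear load, were more often higher. Of 24 measured, 6 were higher and 1 lower, with a median of 0.37. Spp1, osteopontin, read 384 on the terminal array and 85.97 on the dTGR array and was under the floor on the losartan and SD control arrays, a difference of at least 14.8-fold. Thbs4, a thrombospondin, read 212 against 62.9, with 228 for dTGR and 43.01 for SD control, so the terminal and dTGR arrays were the high ones. Postn, periostin, read 104 against 34.9, with 62.6 for dTGR. Vcan, the proteoglycan versican, read 109 and was under the floor after losartan. Lum, the collagen-binding proteoglycan lumican, was the member lower, 3.63-fold, at 97.1 against 352.

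Proteases of the matrix and their inhibitors had 4 of 13 measured genes higher and none lower, with a median of 0.40 (-0.01 with no floor other than 1). Timp1, an inhibitor of metalloproteinases, read 2416 on the terminal array, 285 on the losartan array, 595 on the dTGR array and 193 on the SD control array, 8.46-fold in the pair, and its other probe set gave 4.59. Timp3, its matrix-bound relative, read 163 against 30.1, but 159.7 on the SD control array, so the losartan array was the low one. Plaur, the urokinase receptor, was above the floor on the terminal array at 235 and under it after losartan, at least 9.03-fold. Mmp14, a membrane-bound collagenase, was 2.32-fold higher (210.2 against 90.5).

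The TGF-beta, BMP and Smad list, named for growth factors of fibrosis, had a median of -0.13, next to that of all genes, with 3 of 24 measured genes higher and 1 lower. Fst, follistatin, which binds activins, read 87.9 and was under the floor after losartan. Smad1 and Bmp4, a signal carrier and a ligand of the BMP branch, were above the floor on the terminal array only, at 55.1 and 53.8, and another probe set of Smad1 gave 0.35. Ltbp1, which anchors latent TGF-beta in the matrix, was 2.30-fold lower (53.6 against 123).

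Markers of hypertrophy were only in part higher. Of 12 measured genes of the natriuretic peptide and fetal program, 3 were at least 2-fold higher and none lower, with a median of 0.11. Nppa, the precursor of atrial natriuretic peptide, read 11731 on the terminal array, 5403 on the losartan array, 22028 on the dTGR array and 1759 on the SD control array, 2.17-fold in the pair, and its other probe sets gave 1.05 and 1.45. Nppb, the precursor of the B-type peptide, read 2793, 1995, 3804 and 2049.6 in that order of arrays, 1.40-fold in the pair. Myl7, the atrial regulatory light chain, read 183 against 64.9 (2.82-fold), and Tpm2, beta-tropomyosin, read 133 on the terminal array and under the floor after losartan, with 164 and 64.1 for dTGR and SD control. Myh7 and Acta1, beta-myosin heavy chain and skeletal alpha-actin, are classic fetal genes and did not follow: Myh7 read 13522 against 16580.2, with 0.10 from its other probe set, and Acta1 9278 against 9847.

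The contraction and calcium list had a median of -0.50, with 2 of 20 measured genes lower and none higher. Scaling matters for such bright genes: the median was -0.22 after quantile normalization and -0.29 after cyclic loess. Cacna1c, the pore of the L-type calcium channel, read 215 against 449.8 (2.10-fold lower), with 243 for dTGR and 444 for SD control. Camk2d, the main calcium/calmodulin kinase of the heart, was 2.27-fold lower (352 against 799), but its other probe sets ran from -1.31 to -0.03, and with each gene's probe sets reduced to their median the list had 0 lower. Myh6, alpha-myosin heavy chain, read 8701 against 12590.4, with other probe sets from -0.43 to 0.66. Atp2a2, the calcium pump SERCA2, read 12951 against 17324, with other probe sets from -0.55 to 0.18. For neither was the direction the same in all probe sets. Tnni3, cardiac troponin I, read 10493 against 16952, and Pln, phospholamban, 2261 against 3491, both under 2-fold.

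Z disc and cytoskeletal genes lay on the other side, with a median of 0.56, 3 of 21 measured genes higher and 1 lower. Pdlim5, a Z disc scaffold of protein kinases, read 404 on the terminal array, 49.4 on the losartan array, 101 on the dTGR array and 48.3 on the SD control array, 8.18-fold in the pair, with its other probe set at 2.73. Flnc, the actin cross-linker filamin C, read 3449 against 803 (4.29-fold), with 1043 for dTGR, 643 for SD control and 2.42 from the other probe set. Pfn1, profilin, reached 2.004-fold and fell short of 2-fold after quantile normalization. Fhl2, a LIM protein that tempers hypertrophic signalling, was the member lower: it read 2733 on the terminal array and 8542, 6984 and 6448 on the other 3. Des, the muscle intermediate filament desmin, differed by 1.74-fold (6886 against 3953).

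Genes of the local renin-angiotensin and kinin system were largely dim. Of 18 on the array 11 were measured and 4 of these were above the floor on both arrays, with 2 higher and none lower. Ace, angiotensin-converting enzyme, read 334 on the terminal array and 95.1, 128 and 86.01 on the losartan, dTGR and SD control arrays, so the terminal array stood alone (3.51-fold). Agt, the rat angiotensinogen gene, read 39.6 on the terminal array, under the floor after losartan, 37.7 for dTGR and 39.1 for SD control, all near the floor. Agtr1a, the main AT1 receptor gene and thus the target of losartan, lay at or under the floor on both arrays of the pair, Agtr1b read 33.5 on the terminal array and under the floor after losartan but -1.06 on another probe set, and Agtr2 was under the floor on all 4, so no direction can be given for the receptors. Bdkrb1, the inducible bradykinin receptor, was 2.43-fold higher (68.2 against 28.1), but read 82.4 and 101 on the dTGR and SD control arrays. The list's median was -0.52 over the 11 and 0.26 over the 4 above the floor on both arrays.

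Other vasoactive systems had 2 of 13 measured genes higher and 1 lower. Adm, adrenomedullin, a vasodilator peptide, read 239 on the terminal array, 60.7 on the losartan array, 107 on the dTGR array and 53.2 on the SD control array (3.94-fold in the pair). Gch1, the enzyme that starts synthesis of the nitric oxide synthase cofactor, was 2.57-fold higher (96.2 against 37.5). Gucy1b1, a subunit of the nitric oxide receptor, was 2.36-fold lower (33.6 against 79.2).

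Adrenergic receptor and cAMP genes had a median of -0.07, with 2 of 33 measured genes higher and 5 lower. Adra1b, an alpha-1 adrenergic receptor, read 105 on the terminal array and 261, 299 and 336 on the losartan, dTGR and SD control arrays (2.48-fold lower in the pair). Adcy3, an adenylyl cyclase, was 2.48-fold lower (40.7 against 101), and Prkacb, a catalytic subunit of protein kinase A, 2.11-fold lower (286 against 602). Pde4b, a phosphodiesterase that breaks down cAMP, was 2.17-fold higher (449.6 against 208). Adra1b, Adcy3 and Prkacb were thus lower and Pde4b and Crem higher, while most measured genes of the list stayed under 2-fold. Adcy3 fell short of 2-fold with the floor at the 60th percentile, and Prkacb with its probe sets reduced to their median.

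**Figure D4:**
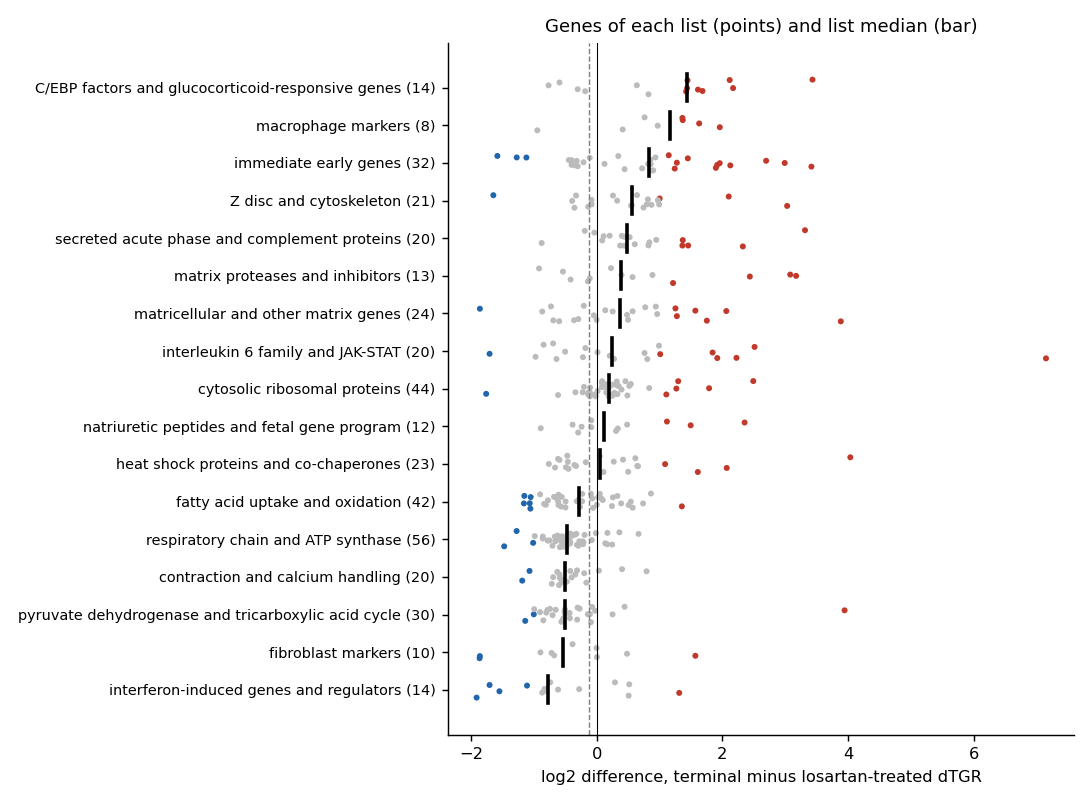
Each row is 1 of 17 gene or marker lists with its number of measured genes in brackets, each point a gene's log2 difference (terminal minus losartan), red at least 2-fold higher and blue at least 2-fold lower, and the black bar the list median. The dashed line is the median of all genes, -0.12. Medians of the lists drawn run from 1.43 in the C/EBP and glucocorticoid list to -0.77 in the interferon list.

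Energy metabolism lists had medians below that of all genes in several branches. Few of their genes were at least 2-fold lower, and in the respiratory chain and tricarboxylic acid cycle lists the share that was lay under the 7.28% of all genes. The respiratory chain and ATP synthase had a median of -0.47 over 56 measured subunits, with 3 lower and none higher, and -0.29 after cyclic loess. Ndufb3, a subunit of complex I, read 2195 on the terminal array, 6089 on the losartan array, 5621 on the dTGR array and 3828 on the SD control array (2.77-fold lower in the pair). Ndufb10, also of complex I, was 2.42-fold lower (1135 against 2745). Uqcrc2, a core subunit of complex III, was 2.01-fold lower and fell short of 2-fold after cyclic loess. The other 53 subunits stayed under 2-fold.

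The fatty acid list had a median of -0.27 over 42 measured genes, with 5 lower and 1 higher. Fabp3, the heart fatty acid binding protein, read 6188 on the terminal array and 13812, 15317 and 9939.6 on the losartan, dTGR and SD control arrays. Acadl, the long-chain acyl-CoA dehydrogenase, read 2636 against 5458, with 4519.5 for dTGR and 4663 for SD control. Echs1, the enoyl-CoA hydratase of beta-oxidation, was 2.22-fold lower (1075 against 2387), but dTGR read 1148, close to the terminal value. Decr1, needed for unsaturated fatty acids, and Acsl1, the acyl-CoA synthetase of muscle, were 2.09-fold and 2.08-fold lower. Fabp3, Acadl, Decr1 and Acsl1 fell short of 2-fold after cyclic loess, where the list had 1 gene lower and 2 higher. Scaling to the same median left 3 lower, without Acadl and Acsl1. Acsl4, an acyl-CoA synthetase for arachidonic acid, was higher, 2.56-fold (97.3 against 38.001), with 0.70 from its other probe set.

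In the pyruvate dehydrogenase and tricarboxylic acid cycle list 1 of 30 measured genes was higher and 2 lower, with a median of -0.50. Pdk4, the kinase that switches pyruvate dehydrogenase off in fasting and under glucocorticoids, read 448 on the terminal array, 29.04 on the losartan array, 80.7 on the dTGR array and 117 on the SD control array. The 15.4-fold difference in the pair joins the highest and the lowest of the 4 arrays. Pdk2, the constitutive kinase, was 2.001-fold lower (1285 against 2570.5), with -0.16 from its other probe set. Dlst, a subunit of the 2-oxoglutarate dehydrogenase complex, was 2.20-fold lower (1583 against 3480.3). Pdk2 and Dlst fell short of 2-fold after cyclic loess.

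Glucose genes split between isoforms. Of 33 measured genes of glucose uptake, glycolysis and glycogen, 4 were higher and 7 lower, with a median of 0.12. Slc2a4, the insulin-responsive transporter GLUT4, read 266 on the terminal array and 839, 724 and 1152 on the losartan, dTGR and SD control arrays. Slc2a1, the basal transporter GLUT1, did the reverse: 727 on the terminal array and 221, 120.2 and 122 on the others. Each was thus set apart on the terminal array, 3.15-fold lower and 3.29-fold higher, and other probe sets gave -1.43 and 1.65. Eno3, the muscle enolase, read 95.4 against 569 (5.96-fold lower), with 247 for dTGR and 602 for SD control. Pgam2, the muscle phosphoglycerate mutase, was 2.89-fold lower (367 against 1059). Pfkm, the muscle phosphofructokinase, was 2.31-fold lower (892 against 2065), with -0.27 from its other probe set. Aldoa, aldolase A, was 2.23-fold higher in the pair (2958 against 1325), but the SD control read 3637, above both.

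Some regulators of glycolysis and glycogen were also lower. Pfkfb4, which makes the activator of phosphofructokinase, read 26.02, at the floor, against 173 on the losartan array, 116 on the dTGR array and 139 on the SD control array, 6.64-fold lower, the largest difference in this direction among named genes with neither array under the floor. Pygb, a glycogen phosphorylase, was 3.23-fold lower (847 against 2738), with -1.34 and -0.92 from other probe sets. Prkab1, a regulatory subunit of AMP-activated kinase, was 3.72-fold lower (109.9 against 409). Ldhd, the D-lactate dehydrogenase of mitochondria, was 3.64-fold lower (78.1 against 284).

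**Figure D5:**
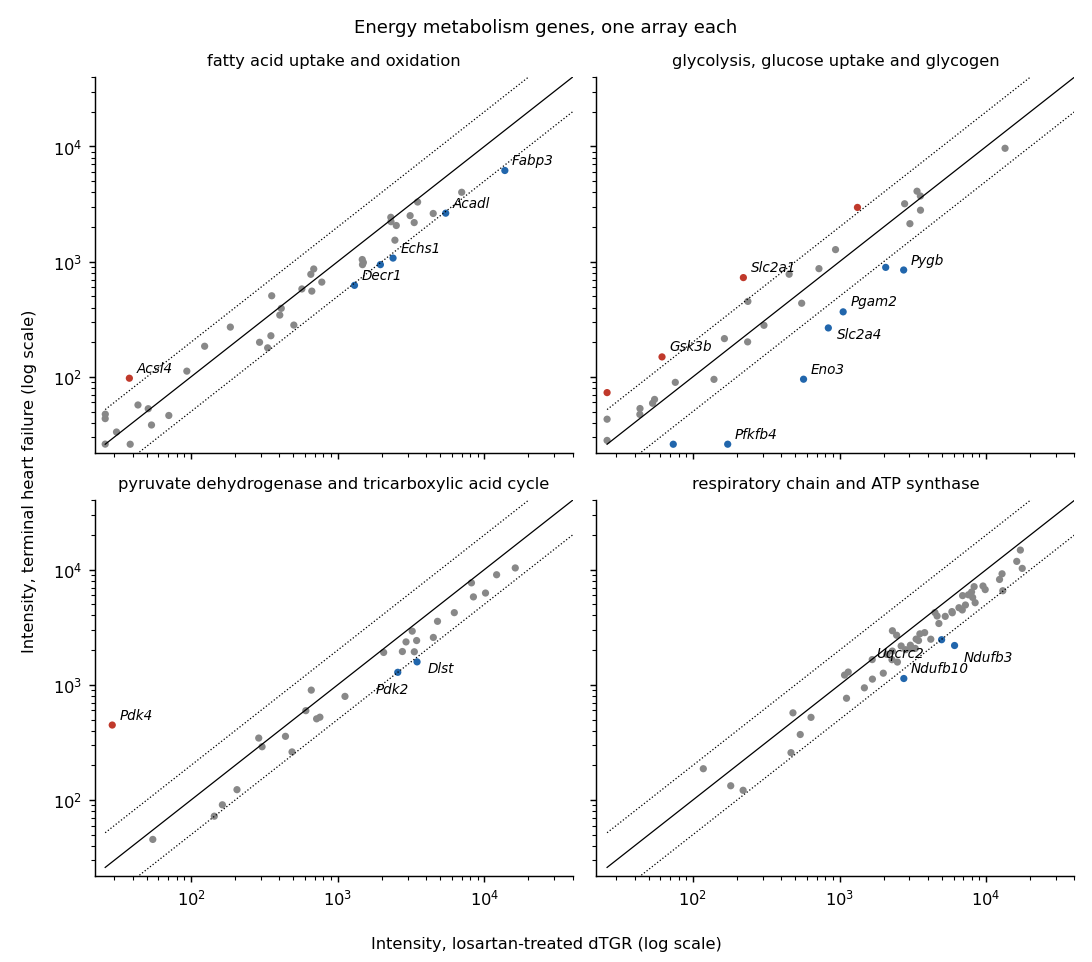
Intensity on the terminal array (vertical, log scale) against the losartan array (horizontal, log scale) for the measured genes of 4 energy lists, with a solid line at equality and dotted lines at 2-fold. Most points of the respiratory chain panel lie just under the solid line, Pdk4 stands far above it, and the glucose panel is spread on both sides.

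Heme and iron genes pointed in both directions. Of 15 measured, 2 were higher and 3 lower. Hmox1, heme oxygenase 1, which breaks heme down, read 1079 on the terminal array and 673 on the dTGR array, against 227 after losartan and 233 in SD control. Alas1, which starts heme synthesis outside red cells, was 2.74-fold lower (536 against 1468), whereas Alas2, its erythroid form, was 3.39-fold higher (856 against 252). The beta-globin gene Hbb, a marker of blood in the tissue, differed by 0.06 and the summed erythroid markers read 21507 on the terminal array and 18963 on the losartan array. Tfrc, the transferrin receptor, read 48.5 on the terminal array and 152, 146 and 171 on the losartan, dTGR and SD control arrays. Alad, the enzyme after Alas in heme synthesis, was 2.46-fold lower (77.4 against 191).

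Antioxidant enzymes had 2 of 32 measured genes higher and 2 lower, with a median of -0.13, and both shares lay under those of all genes. Mgst1, a microsomal glutathione transferase, read 1318 on the terminal array and 368, 352 and 372 on the losartan, dTGR and SD control arrays (3.58-fold in the pair). Txnrd1, the cytosolic thioredoxin reductase, was 2.78-fold higher (1342 against 482). Cat, catalase, was 2.01-fold lower (173 against 349), with -0.85 and -0.16 from its other probe sets, and fell short of 2-fold after cyclic loess. The endoplasmic reticulum stress list had 1 of 17 higher and 1 lower: Ppp1r15a, which restarts translation after stress, was 3.37-fold higher (567 against 168), and Pdia2, a protein disulfide isomerase, 2.92-fold lower (37.8 against 110.2).

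Ribosomal protein genes lay slightly above the median of all genes. Of 44 measured cytosolic ribosomal protein genes 5 were higher and 1 lower, with a median of 0.19. Rpl6 read 3671 against 1493 (2.46-fold) and Rpl17 257 against 45.6 (5.63-fold), both subunits of the large particle. Ribosomal protein genes have many processed copies in the genome, so their probe sets may read several loci. Rpl3l, the muscle-specific paralog of Rpl3, was the member lower: it read 545 on the terminal array and 1843, 949 and 1046 on the losartan, dTGR and SD control arrays, while Rpl3 itself was 2.16-fold higher (2899 against 1344). Other probe sets gave smaller differences, -0.76 for Rpl3l, 0.84 for Rpl3 and 0.35 for Rpl6. Eif4ebp1, which holds back cap-dependent translation, was 2.81-fold higher (1003 against 357), and Eef2k, the kinase that slows elongation, 2.43-fold lower (45.1 against 109.6). Other probe sets gave 0.19 and 1.99 for Eif4ebp1 and -0.25 for Eef2k.

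Protein breakdown showed little shift. The proteasome and ubiquitin list had 1 of 43 measured genes higher and 3 lower, with a median of -0.14. Trim63, the muscle ubiquitin ligase MuRF1, read 234 against 601 (2.57-fold lower), but its other probe set gave 0.98 in the opposite direction. Nedd4, another ubiquitin ligase, was 2.15-fold higher (449.7 against 209.5). Among 20 measured lysosomal and autophagy genes 2 were higher and 1 lower. Ctsl, cathepsin L, read 3617 on the terminal array and 1557, 1077 and 1014 on the losartan, dTGR and SD control arrays, and Ctsk, cathepsin K, was 2.33-fold lower (56.9 against 133). Another probe set of Ctsl gave 0.89.

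Ion channels and connexins had 3 of 51 measured genes higher and 3 lower, with a median of -0.18. Both shares lay under those of all genes (7.4% higher and 7.28% lower). Gja1, connexin 43 of the ventricular gap junction, read 154 on the terminal array, 47.001 on the losartan array, 174 on the dTGR array and 278 on the SD control array, so the losartan array was the low one. Kcnj11, the pore of the ATP-sensitive potassium channel, was 2.16-fold lower (356 against 767). Kcnab2 and Kcnf1, subunits of voltage-gated potassium channels, each had 1 array under the floor: Kcnab2 read 65.1 on the terminal array and Kcnf1 63.7 on the losartan array.

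Solute carriers, the membrane transporters, had 9 of 88 measured genes higher and 5 lower, with a median of -0.10. Slc6a6, the taurine transporter, read 234 on the terminal array and was under the floor after losartan (at least 9.01-fold). Slc3a2, the heavy chain of amino acid exchangers, read 899 against 276 (3.26-fold), with 333 for dTGR and 248 for SD control. Slc1a1, a glutamate transporter, was 4.09-fold higher (185 against 45.2), with 0.25 and 2.15 from other probe sets, and Slc6a9, a glycine transporter, 3.49-fold higher (187 against 53.4). Those 4 serve the transport of amino acids or taurine. Slc25a26, which brings S-adenosylmethionine into mitochondria, read 240.1 on the terminal array and 1049, 1009 and 745 on the losartan, dTGR and SD control arrays, 4.37-fold lower in the pair.

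Neuropeptide precursors had 4 of 14 measured genes higher and none lower, with a median of 0.03 (-0.38 with no floor other than 1). Trh, the precursor of thyrotropin-releasing hormone, read 300.2 on the terminal array, 29.1 on the losartan array, under the floor on the dTGR array and 40.01 on the SD control array (10.3-fold in the pair), with 2.03 from its other probe set. Penk, the enkephalin precursor, read 2065 against 863, but 3001 on the dTGR array and 327 on the SD control array. Npy, neuropeptide Y of sympathetic nerves, was 2.53-fold higher (135 against 53.4), and Gal, galanin, read 95.5 and was under the floor after losartan. Th, tyrosine hydroxylase, the rate-limiting enzyme of catecholamine synthesis, was above the floor on the terminal array only (65.8). Npy and Th were also the 2 higher ones among 7 measured neuron and Schwann cell markers, of which none was 2-fold lower. That marker list had a median of -0.32 and a summed intensity of 914 on the terminal array against 1009 on the losartan array.

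Phospholipase and eicosanoid genes had 7 of 35 measured genes higher and 3 lower, with a median of only 0.06. Pla2g4a, the cytosolic phospholipase A2 that frees arachidonic acid, read 442 on the terminal array and 112, 55.8 and 101 on the losartan, dTGR and SD control arrays (3.95-fold in the pair). Some genes that act downstream were also higher: Alox15, a lipoxygenase, by 2.67-fold (743 against 278), Alox5ap, the activator of 5-lipoxygenase, by 2.69-fold, and Ptgds, prostaglandin D synthase, by 3.28-fold (250.2 against 76.2). Another probe set of Alox5ap gave 0.89. Ptger3, a receptor of prostaglandin E2, read 96.4 after losartan and was under the floor on the terminal array, but its other probe set gave -0.11.

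Growth signalling was mixed. Hbegf, a ligand of the EGF receptor, was above the floor on the terminal array at 168 and under it after losartan (at least 6.47-fold). Map3k12, a kinase of the JNK pathway, read 95.7 on the terminal array and 539.6 on the losartan array, but was under the floor on the dTGR and SD control arrays, so its 5.64-fold difference comes with a losartan array that stands apart from the other 3. Of 24 measured insulin and IGF genes 4 were higher and 2 lower. Akt2, a kinase of insulin signalling, was 3.62-fold higher (102 against 28.1), and Igf1r, the IGF-1 receptor, 2.32-fold higher (62.9 against 27.1), with smaller differences of 0.49 and 0.41 from their other probe sets. Grb14, an adaptor that blocks the insulin receptor, was 2.97-fold lower (283 against 839.5), and Mtor, the growth kinase, 2.34-fold lower (133 against 313).

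Cell cycle genes had 2 of 21 measured genes higher, 4 lower and a median of -0.34, but 6 higher, 5 lower and a median of 0.00 with no floor other than 1. Ccne1, cyclin E1, read 138 after losartan and was under the floor on the terminal array, while its other probe set was above the floor on both arrays and gave -0.65. Cdk1, the mitotic kinase, read 89.2 after losartan and was likewise under the floor. Ccnd1, cyclin D1, was 2.46-fold lower (141 against 348), with other probe sets at -1.34 and 0.21. Ccng1, cyclin G1, a p53 target, was 2.62-fold higher (3928 against 1498), but 3583 on the dTGR array and 3275 on the SD control array, so the losartan array was the low one. Among apoptosis genes 1 of 15 was higher and 3 lower. Bcl2l1, the survival protein Bcl-xL, was 2.49-fold higher (121 against 48.8), but its other probe sets gave -0.53 and 1.34. Bcl2l11, of the death-promoting BH3-only class, read 100.4 after losartan and was under the floor on the terminal array. Hrk, of the same class, did so too on the probe set that stands for it (78.8 after losartan), but another gave 0.55 in the opposite direction. Casp2, a caspase, was 2.86-fold lower, with other probe sets at -0.16 and 0.06. With each gene's probe sets reduced to their median, the apoptosis list had 0 higher and 0 lower.

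Transcription factors of the nuclear receptor and cardiac list had 2 of 23 measured genes higher and 2 lower. Rxrg, a retinoid X receptor, read 365 and 382 on the terminal and dTGR arrays and 997 and 1019 on the losartan and SD control arrays, and its other probe sets gave -1.91 and -0.81. The losartan array thus lay with the SD control and the terminal array with dTGR. Nr0b2, a repressor of other nuclear receptors, was 2.09-fold lower (168 against 351), and Hand2, a cardiac development factor, 3.29-fold higher (108 against 32.9). In the circadian list Per2, a repressor of the clock, was above the floor on the terminal array only (64.6), and Bmal1, its activator, differed by 1.80-fold. The hour of tissue collection is not given in the sources used here.

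Among differences where the losartan array was bright and the terminal array under the floor, the largest was Fdft1, squalene synthase of the cholesterol pathway. It read 368 on the losartan array, 149.7 on the dTGR array and 323 on the SD control array, at least 14.2-fold lower on the terminal array, and its other 3 probe sets gave smaller differences of -1.93, -1.75 and -0.85. The first 2 of these were above the floor on both arrays. In the other direction the largest such difference was Tgm1, a transglutaminase, at 457 on the terminal array (at least 17.6-fold). Msn, the membrane linker moesin, at 176, and Orai1, the store-operated calcium channel, at 138, were also above the floor on the terminal array and under it after losartan. Actb, cytoplasmic beta-actin, often used as a reference, read 2855 against 4749.6, 1.66-fold lower.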

How the data were processed

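Left ventricular total RNA of 4 rat samples was measured on Affymetrix arrays, 1 per group. The deposited value table gives the authors' intensity of each probe set on each array, not logged. Software and scaling target were not given in the sources used here. Per the file headers the arrays differ in chip lot, fluidics protocol or run day. Of all values, 89.2% of those from 1 to under 32 have 0 as their first decimal and another digit as the second, as if a spreadsheet had rewritten them as day and month, so low values carry little.

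Intensities were scaled to the mean of the 4 arrays' 2% trimmed means (200.2 to 200.3), floored at the 40th percentile (26.0) and taken to log2. Probe sets were named through the platform annotation: 7006 had 1 gene symbol, 308 several and 1426 none, and 6985 matched a RefSeq gene by Entrez ID. This gave 4736 genes, 1565 with several probe sets. A gene was called at 2-fold or more. With 1 array a group there was no test, and the precision is limited by that number.

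Named genes were the 20 largest differences in each direction above the floor on both arrays with no probe set of opposite sign, the 8 largest lower bounds in each direction, up to 5 members of each of 41 gene and 15 marker lists, and a fixed set of heart failure genes. Abcd3, Acadl, Aldoa, Cd74, Col1a1, Col1a2, Dusp1, Fdx1, Hbb, Hsd11b1, Hspa9, Hspd1, Id2, Ifitm3, Kctd13, Klf9, Pfkm, Pgam2, Plod2, Rpl3, Rsad2 and Slc3a2 lie outside that rule and were chosen after their values were seen. The pair, the lists, the motifs and the alternatives were chosen with earlier results of these data known. Alternatives changed the floor, the scaling (none, same median, quantile, cyclic loess), the probe set rule and the reading of low values. Promoter windows came from RefSeq GRCr8, for 3871 genes on the design. The script was checked on simulated data. Python 3.11.15, numpy 2.4.6, pandas 2.3.3, scipy 1.17.1, matplotlib 3.10.9, R 4.3.3 and limma 3.58.1 were used.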

Additional observations from a re-analysis of the deposited data

Results flagged for a closer look

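Control features that carry the antisense strand of beta-actin and Gapdh took no part in the comparisons, and 5 of these 6 were above the floor of 26.0 on the terminal array and above their level on the SD control array. The 3' antisense feature of beta-actin read 66.5 on the terminal array, against 5.04 on the losartan array, 10.02 on the dTGR array and 4.07 on the SD control array. The middle antisense feature of beta-actin read 77.7, against 27.1, 9.01 and 5.09 on the losartan, dTGR and SD control arrays. For Gapdh the 3' antisense feature read 107 on the terminal array and 54.9, 86.2 and 19.1 on the other 3 in that order. The 5' antisense feature of Gapdh read 121 on the terminal array, against 39.1, 98.6 and 25.01. The middle antisense feature of Gapdh read 175 on the terminal array, against 78.5, 91.2 and 64.6. The remaining feature, 5' antisense beta-actin, was under the floor on the terminal array at 13.1.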

How the results depend on the processing

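The main counts, 251 genes higher and 247 lower on the terminal array, depended on the floor. They became 395 and 470 with the floor at the 25th percentile, 149 and 127 at the 60th, and 590 and 732 with no floor other than 1. With every probe set counted on its own, 521 were higher and 415 lower. Both counts stayed within 1.5 times under the other alternatives: above the floor on both arrays (183 and 192), no further scaling (251 and 250), the same median (289 and 228), quantile normalization (258 and 254), cyclic loess (292 and 224), the probe sets of each gene reduced to their median (232 and 199) and low values read as 1 decimal (250 and 246), the last chosen after the data were seen. Of 191 named genes at 2-fold or more, 128 stayed there under every alternative in which they were still measured. With the floor at the 60th percentile 42 fell short, and with the median of probe sets 22. Cyclic loess took 7 below 2-fold, the same median 4 and quantile normalization 1. A gene not measured under an alternative was left out of these counts. With both arrays required to be above the floor, that held for every gene whose fold is given as "at least". Of these 191, RT1-S3 alone changed sign, from -1.33 to 0.14 with the median of its probe sets. Of 56 lists, 25 had a median that changed sign under at least 1 alternative, the natriuretic and fetal list and the heat shock list among them. The neutrophil and B cell lists gave no value with both arrays above the floor.

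No paired analysis was possible because each group has 1 array and the labels carry no replicate numbers. Leaving out a replicate does not apply to 1 array a group. Run day and group cannot be told apart, intensity near the floor limits every fold given as "at least", and a saturation limit of the scanner was not examined. The cause of each change between alternatives beyond its construction was not tested.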

Other observations

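Genes named by their size alone belong to no group described so far. Med25, a subunit of the Mediator complex, read 235 on the terminal array and 35.9 on the losartan array, but 201 and 365 on the dTGR and SD control arrays. Apbb1, an adaptor that binds amyloid precursor protein, likewise read 168 against 30.03, with 147 for dTGR and 184 for SD control. In both the losartan array was the low one of the 4. Pvr, a nectin-like adhesion receptor, read 138 against 29.1 (4.75-fold higher), with 54.8 for dTGR and a value under the floor for SD control, so here the terminal and dTGR arrays were the high ones. Fdx1, the ferredoxin of mitochondrial steroid synthesis, was chosen after its values were seen and read 2045 on the terminal array and 549, 538 and 469 on the losartan, dTGR and SD control arrays.

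On the lower side, Smim5, a small membrane protein, read 46.4 on the terminal array and 307, 208 and 286 on the losartan, dTGR and SD control arrays. Myl9, the regulatory light chain of smooth muscle, was 3.80-fold lower (356 against 1351) with -0.52 from its other probe set, although none of the 6 smooth muscle markers reached 2-fold. Ptpn3, a protein tyrosine phosphatase, read 157 against 678, with 312 for dTGR and 642 for SD control. Xylt2, which starts glycosaminoglycan chains on proteoglycans, was 4.65-fold lower (28.004 against 130.1). Nmrk2, a muscle kinase of NAD synthesis, and Pnpla3, a lipid droplet protein, were above the floor after losartan (129.5 and 109.6) and under it on the terminal array.

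Several features set the losartan array, rather than the terminal one, apart from the other 3. Abcd3, a peroxisomal transporter chosen after its values were seen, read 1836 on the losartan array and 282, 249.5 and 225 on the terminal, dTGR and SD control arrays, and its other probe set differed by 0.54. A pair of probe sets without a gene symbol behaved alike: 1 read 409 on the losartan array and 40.4, 78.0 and 75.3 on the terminal, dTGR and SD control arrays, and the other 550.3 against 65.8, 58.9 and 67.7. The cause was not tested.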
